A study of Homo sapiens with 38 samples.

Results

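The Lenvatinib screen of SNU-398 cells asks which gene knockouts become rarer or more common in a pool of hepatocellular carcinoma (HCC) cells kept on Lenvatinib. Its members were taken by their labels: the 2 Lenvatinib libraries of SNU-398 and the 2 libraries labelled T1, which stand for vehicle. These are 4 of the 38 samples of the series and 4 of its 16 SNU-398 libraries. Each library counts 66582 guides, of which 135 are control guides against LacZ (93), EGFP (21) and luciferase (21), which have no target in a human genome, and the rest target 18036 genes. Of the genes, 13400 have 4 guides, 3825 have 3, 551 have 2 and 258 have 1.

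Lenvatinib is a multikinase inhibitor used in HCC. It blocks the receptors of vascular endothelial growth factors and fibroblast growth factors, together with PDGFRA, KIT and RET. These receptors signal through the RAS-ERK and the PI3K-AKT-mTOR cascades, which drive growth and survival. In a pooled knockout screen, each cell carries a guide that directs Cas9 to cut a gene, and the guide sequence in the genomic DNA serves as the barcode of the cell. A guide that becomes rarer under a drug than under vehicle marks a gene whose loss slows or kills treated cells more than untreated cells.

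All groups share the same cells: SNU-398 cells that stably express Cas9, transduced with the TKOv3 guide library at a low ratio of virus to cells and selected with puromycin. The Lenvatinib cells then received the drug at its IC20 for 14 days. The Regorafenib, Sorafenib, Erastin, Abemaciclib and Palbociclib cells received their own inhibitor at IC20 for the same time. T1 was read as the vehicle group, because the study describes 1 vehicle group and 1 baseline among its 8 groups and the labels name T0 and T1. T0 cells were harvested before treatment. The screen is a single cell line, and no source says whether libraries 1 and 2 of a group were grown apart. The p-values therefore describe the spread among these libraries alone, and that spread may be technical.

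The Lenvatinib libraries held 23962472 and 12389354 counts and the T1 libraries 21983238 and 11558112, within a range of 11558112 to 46043970 over the 16 libraries. Counts are given below as CPM, scaled to the total of their library. A floor of 3 counts equals 0.125 and 0.242 CPM in the Lenvatinib libraries and 0.136 and 0.26 CPM in the T1 libraries. Among counts above 0, 97.0% and 85.7% were even numbers in the Lenvatinib libraries and 97.4% and 89.5% in the T1 libraries. The sources used here give no reason, so a count was not read as an independent molecule, and floors cover counting error only. Counts were uneven between guides. The 1000 most counted guides held 47.8% and 47.7% of all counts in the Lenvatinib libraries and 47.6% in each T1 library. The median gene had 80.3% of its T1 counts in a single guide.

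Before any gene is named, the libraries themselves show how much of the difference is general. Over all 66582 guides, the 2 Lenvatinib libraries correlated at r = 0.990 on the log2 scale and the 2 T1 libraries at 0.988. The Lenvatinib libraries correlated with the T1 libraries at 0.916 to 0.920. They were closer to the Regorafenib libraries, at 0.946 to 0.949, and to the T0 libraries, at 0.936 to 0.938. The T1 libraries were closest to the Abemaciclib libraries, at 0.969 to 0.973, and stood at 0.923 to 0.926 with the Regorafenib libraries. These are descriptions over guides of the same library, not tests.

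The distance between Lenvatinib and T1 depended on how often a guide had been counted at T0. The SD of the log2 difference between Lenvatinib and T1 was 1.26 for the 8858 guides with a mean T0 count of 30 to 100, and 0.31 for the 2306 guides with the highest T0 counts. Between the 2 Lenvatinib libraries the same SDs were 0.43 and 0.067. Rare and highly counted guides alike therefore scattered between the groups by more than between libraries of a group. The spread of Abemaciclib against T1 was 0.71 and 0.13 in the same ranges.

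**Figure D1:**
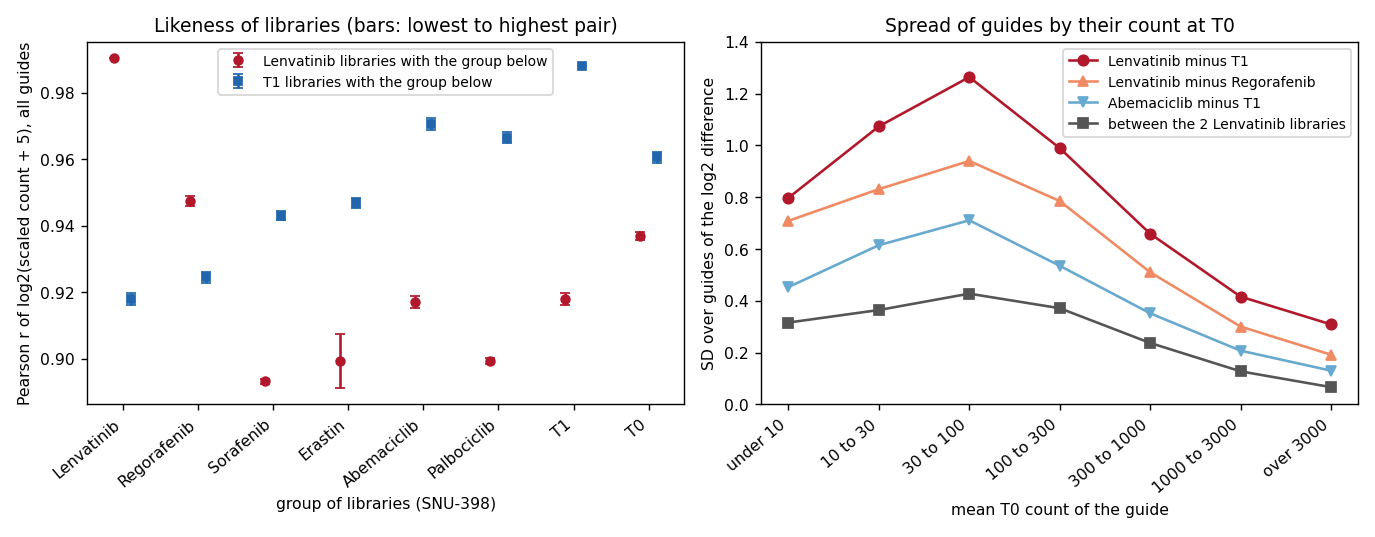
Left: Pearson r over all guides (y axis) of the Lenvatinib libraries (red) and the T1 libraries (blue) with each group on the x axis, as the midpoint of bars that run from the lowest to the highest pair. Right: SD over guides of the log2 difference (y axis) by the mean count of the guide at T0 (x axis) for Lenvatinib minus T1, Lenvatinib minus Regorafenib, Abemaciclib minus T1 and between the 2 Lenvatinib libraries; the red curve peaks at 1.26 where the grey one is at 0.43.

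Many rare guides were lost in only some of the groups. Of 19460 guides with a mean T0 count of 20 to 200, 3742 (19.2%) were at 0 in both Lenvatinib libraries, 3240 (16.6%) in both Regorafenib libraries and 1725 (8.86%) in both T1 libraries. There were 2410 guides at 0 in both Lenvatinib libraries that were counted in both T1 libraries, and 669 the other way round. Of those 2410 guides, 1179 were also at 0 in both Regorafenib libraries. Among 35 control guides of the same range, 7 were at 0 in both Lenvatinib libraries and 4 in both T1 libraries. Of the 16890 guides with a mean T0 count of 200 to 2000, 2 were at 0 in both Lenvatinib libraries.

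Control guides moved as much as the others. Among guides with a mean T0 count of at least 100, the log2 difference between Lenvatinib and T1 had an SD of 0.76 over 46 control guides, 0.74 over 435 guides to olfactory receptors, which liver cells do not need, and 0.76 over all 25782 guides. The control guides ran from -2.43 to 1.55, and 3 of them were lower and 6 higher by at least 1. With Regorafenib in place of T1, the SD was 0.45 over the control guides, none of which differed by 1 or more, and 0.60 over all guides.

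A test over libraries was therefore read only beside its background. With edgeR's quasi-likelihood test on counts summed per gene, 11002 of 17996 genes (61.1%) differed between Lenvatinib and T1 at an adjusted p under 0.05, 5405 higher and 5597 lower. On single guides, 33008 of 56827 (58.1%) differed, 15352 higher and 17656 lower. Of the control guides tested, 66 of 116 (56.9%) differed, 33 in each direction, and of the olfactory receptor guides 592 of 1058 (56.0%). A call by this test says that a count differed by more than the libraries of a group did. It did not set a targeted guide apart from a control guide. Guides of the same gene did not often move together: among 14383 genes with at least 3 guides tested, all guides were lower in 335 (2.33%), all were higher in 203 (1.41%), and guides were called in both directions in 6128 (42.6%).

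The screen was scored as the study scored it, with NormZ, which sums the scaled log2 ratios of all guides of a gene over both libraries and sets the sum in standard units. Genes with a NormZ below 0, whose guides were fewer under the drug, are called resisters, and genes above 0 sensitizers. At a one-sided p under 0.01, 278 of 18036 genes (1.54%) were resisters and 148 (0.821%) sensitizers. The p treats guides as independent observations, so it serves as a threshold and not as a test over cultures. After adjustment for all genes, 14 resisters and 0 sensitizers had a false discovery rate under 0.05. The last resister stood at -2.33 and the next gene outside at -2.324, and on the other side the neighbours stood at 2.327 and 2.326. When each Lenvatinib library was scored alone against its T1 library, 153 of the resisters and 83 of the sensitizers passed in both libraries.

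SOD2, the manganese superoxide dismutase of mitochondria, had the lowest NormZ of the screen, at -5.39. Its guide with the highest T0 count, called guide 1 here and likewise for every gene, had 15.3 and 15.8 CPM in the Lenvatinib libraries, against 58.8 and 52.3 CPM in the T1 libraries. Guide 2 had 9.01 and 9.20 CPM in Lenvatinib, against 31.3 and 27.7 CPM in T1. Guide 3 had 2.17 and 3.87 CPM in Lenvatinib, against 8.10 and 7.96 CPM in T1. All 3 counted guides were thus lower in both Lenvatinib libraries, with no overlap, and guide 4 was near 0 in every group. The counts summed for SOD2 were lower by 1.76 ± 0.079 on the log2 scale (SE, edgeR, n = 2 libraries a group, adjusted p = 4.4e-27), to 0.297 of T1. Guide 1 stood at 52.1 and 50.9 CPM under Regorafenib and at 72.4 and 77.7 CPM at T0. SOD2 reached a NormZ of -1.24 in the Regorafenib screen, -5.65 with Sorafenib, -6.76 with Abemaciclib and -5.71 with Palbociclib, all set against the same T1 libraries. The Erastin screen is not reported here.

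DOLK, the kinase that makes the dolichol phosphate carrier of N-glycosylation, followed with a NormZ of -4.69. Guide 1 had 53.2 and 49.1 CPM in Lenvatinib, against 120.0 and 117.2 CPM in T1. Guide 2 had 4.72 and 4.36 CPM in Lenvatinib, against 23.0 and 19.3 CPM in T1, and guide 3 had 0.58 and 0.32 CPM in Lenvatinib, against 3.09 and 3.12 CPM in T1. These 3 guides were lower by 1.19, 2.20 and 2.63 on the log2 scale in edgeR. Guide 4 went the other way, with 1.17 and 1.94 CPM in Lenvatinib and 0.91 and 0.52 CPM in T1, a difference that did not pass (adjusted p = 0.17). In the Regorafenib libraries guide 1 stood between, at 79.6 and 85.0 CPM, and so did guide 2, at 11.8 and 10.2 CPM. Guide 3 was about as low under Regorafenib as under Lenvatinib, at 0.34 and 0.43 CPM. A guide was taken as well covered at a mean of at least 3 CPM in T1. DOLK was 1 of 2 genes, of 2218 with at least 3 well covered guides (0.0902%), in which every such guide was lower by at least 1 in both libraries. No gene (0 of 2218) had every such guide higher by 1. Both counts are of guides kept for their T1 level, which favours lower over higher, so nothing is read from the difference between them. The other was NEUROG3, a transcription factor of the endocrine pancreas, whose well covered guides had 0 to 2.34 CPM in Lenvatinib and 3.12 to 5.88 CPM in T1, with a NormZ of -2.68. A guide of NEUROG3 below that coverage did not differ (adjusted p = 0.9).

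Several genes of basic cell machinery were low as well. SBDS, which helps to mature the large ribosomal subunit, had 167.4 and 163.0 CPM of guide 1 in Lenvatinib, against 372.3 and 366.3 CPM in T1. Its other 3 guides were each lower too, by 0.54 to 1.39 on the log2 scale in edgeR, and the NormZ was -4.35. ATP6V0C, the proteolipid subunit of the proton pump of lysosomes, had 244.0 and 252.3 CPM of guide 1 in Lenvatinib, against 575.7 and 568.6 CPM in T1, and a NormZ of -4.33. Both genes were also lower in vehicle than at baseline: guide 1 of SBDS had 516.7 and 539.6 CPM at T0, and that of ATP6V0C 787.3 and 789.0 CPM. NormZ of T1 against T0 was -3.12 for SBDS and -2.41 for ATP6V0C. The share of the Lenvatinib values that goes with this loss was not tested. NDNL2, a subunit of the SMC5/6 complex of chromosome repair, had -4.29 against T1 and -3.53 for T1 against T0. Guide 1 of NDNL2 had 40.4 and 37.1 CPM in Lenvatinib, 59.3 and 53.7 CPM in Regorafenib, 71.2 and 73.7 CPM in T1 and 98.1 and 99.2 CPM at T0. Its guides 2 and 3 kept the same order of Lenvatinib, Regorafenib and T1.

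PPP1R3D, a subunit that brings protein phosphatase 1 to glycogen, had a NormZ of -4.18 and was near 0 for T1 against T0 (-0.07). Guide 1 had 15.4 and 17.5 CPM in Lenvatinib, against 30.1 and 34.4 CPM in T1. Guide 2 had 9.93 and 8.88 CPM in Lenvatinib, against 22.7 and 23.5 CPM in T1, and guide 3 had 2.84 and 1.61 CPM in Lenvatinib, against 12.01 and 9.69 CPM in T1. EWSR1, an RNA-binding protein of the FET family, had smaller but even differences: its 4 guides were lower by 0.62 to 1.18 in edgeR, and guide 1 had 284.1 and 283.9 CPM in Lenvatinib, against 462.0 and 466.6 CPM in T1. The NormZ of EWSR1 was -3.9996. In 6 of the 15 lowest genes (DOLK, CRIP2, SBDS, NDNL2, PPP1R3D and CCSAP) some guides overlap each other on the target, so their guides are not independent of each other.

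**Figure D2:**
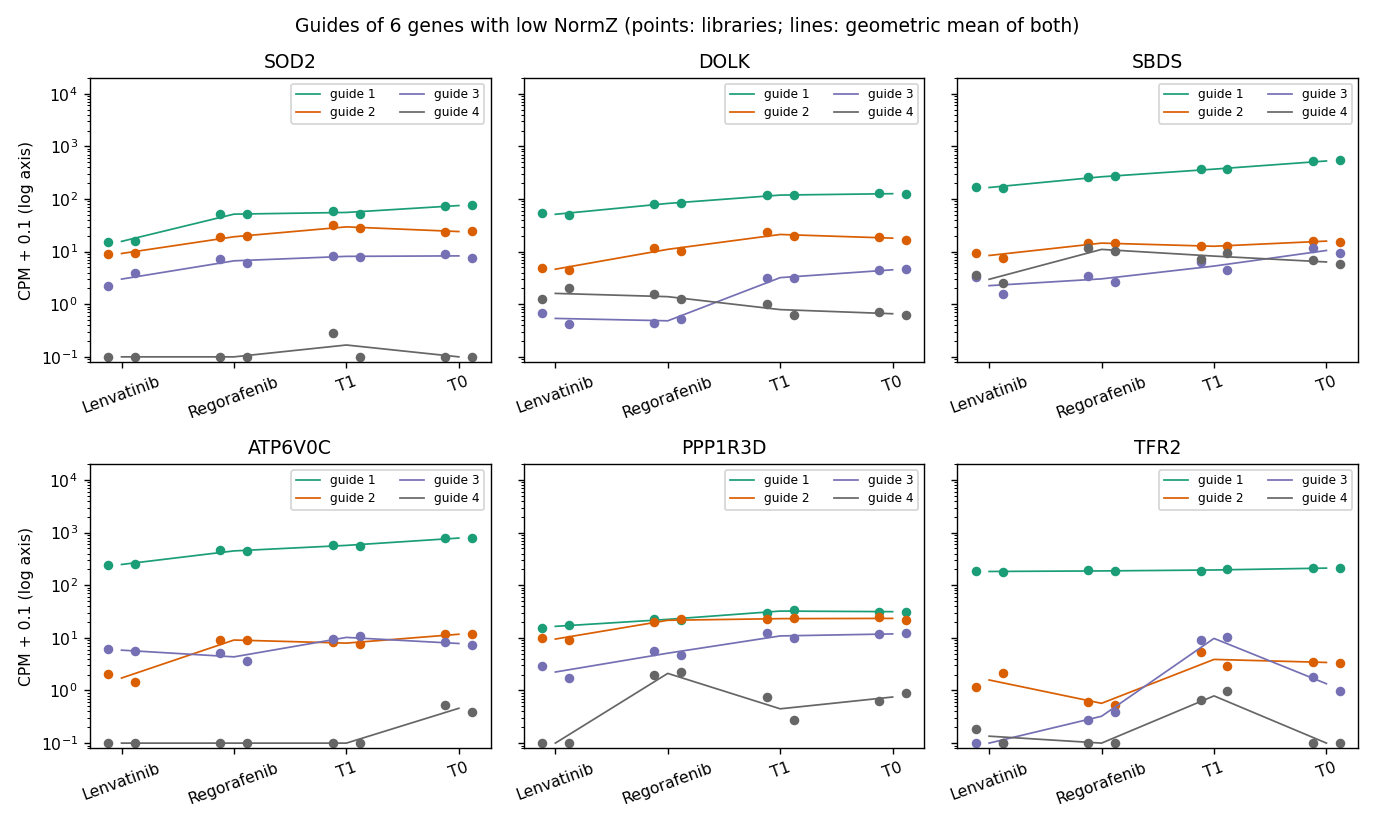
CPM of each guide plus a constant (y axis, log scale) in the 2 libraries of Lenvatinib, Regorafenib, T1 and T0 (x axis) for 6 genes with low NormZ; points are libraries and lines join geometric means. The 3 upper guides of SOD2 are lower in Lenvatinib than in Regorafenib, T1 and T0, whereas guide 3 of TFR2 stands out only by 9.01 and 10.4 CPM in T1.

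Other genes of the lowest 15 rested on guides that were high in T1. TFR2, the second transferrin receptor, had a NormZ of -4.22, yet guide 1 had 186.1 and 179.4 CPM in Lenvatinib and 188.4 and 201.8 CPM in T1, which did not differ in edgeR (adjusted p = 0.18). Guide 3, in contrast, was at 0 in both Lenvatinib libraries, against 9.01 and 10.4 CPM in T1, and guides 2 and 4, at no more than 5.19 CPM in any of the 4 libraries, were lower as well. At T0 guide 3 had 1.74 and 0.88 CPM, so T1 was the group that stood out. CCSAP, a protein of centrioles and the spindle, had 0.083 and 0.081 CPM over all guides in Lenvatinib, against 10.1 and 11.8 CPM in T1, while T0 held 2.87 and 1.99 CPM. SURF1, an assembly factor of cytochrome c oxidase, had 0 and 0.161 CPM in Lenvatinib, against 9.19 and 9.52 CPM in T1, while T0 held 2.35 and 2.65 CPM. The fitted fold changes of CCSAP and SURF1 depend on counts at or under the floor, so no fold is given. CORO1C, an actin-binding coronin, and CRIP2, a LIM domain protein, likewise had T1 above T0, with NormZ of 2.69 and 2.21 for T1 against T0. Guide 1 of CORO1C had 5.42 and 5.33 CPM in Lenvatinib, 8.81 and 8.47 CPM in Regorafenib, 16.3 and 17.5 CPM in T1 and 8.73 and 8.72 CPM at T0. Guide 1 of CRIP2 had 114.9 and 111.9 CPM in Lenvatinib, 131.1 and 132.9 CPM in Regorafenib, 161.1 and 156.6 CPM in T1 and 134.7 and 135.6 CPM at T0. In both genes T1 exceeded T0 and Lenvatinib lay below it. The T1 libraries entered both values. Of all 278 resisters, 215 had a NormZ above 0 for T1 against T0, 38 of them past the threshold. Another 10 resisters were past the threshold on the low side. Of the 148 sensitizers 137 had a value below 0, 17 of them past the threshold, and 0 were past it on the high side. The median over all genes was 0.003. T1 enters the 2 scores with opposite sign, so nothing particular to these genes is read from the counts.

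The remaining genes of the 15 were NELFB, a subunit of the negative elongation factor of RNA polymerase II (-4.11), NAE1, a subunit of the enzyme that activates NEDD8 (-4.07), and EXOSC6, a core subunit of the RNA exosome (-3.92). Guide 1 of NELFB had 109.0 and 123.0 CPM in Lenvatinib, against 242.1 and 240.3 CPM in T1. Guide 1 of NAE1 had 73.1 and 81.5 CPM in Lenvatinib, against 113.7 and 113.1 CPM in T1. Guide 1 of EXOSC6 had 11.02 and 13.2 CPM in Lenvatinib, against 34.0 and 34.4 CPM in T1. In none of the 3 did the libraries of the groups overlap.

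Whether these genes were particular to Lenvatinib was asked by setting the Lenvatinib libraries against the Regorafenib libraries, a choice made after the data had been seen. Regorafenib is another multikinase inhibitor given for HCC, and its libraries were nearest to those of Lenvatinib. With this reference, 275 genes (1.52%) were resisters and 153 (0.848%) sensitizers. They included 46 of the resisters against T1, which is 16.5% of those and 16.7% of the 275. They included 35 of the sensitizers against T1, which is 23.6% of those and 22.9% of the 153. With T0 as reference, 104 resisters (37.4%) and 72 sensitizers (48.6%) passed again. The Lenvatinib libraries enter all of these comparisons.

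Of the 15 lowest genes, 7 passed against Regorafenib and 11 against T0. SOD2 stood at -5.50 against Regorafenib and -5.45 against T0, SBDS at -5.32 and -5.89, ATP6V0C at -5.13 and -5.47, and PPP1R3D at -4.13 and -4.78. EWSR1 (-2.92), DOLK (-2.63) and NDNL2 (-2.57) passed against Regorafenib by less. NAE1 turned to 1.19 against Regorafenib, where its guides were as low or lower: guide 2 had 10.5 and 10.7 CPM in Lenvatinib, 3.94 and 4.16 CPM in Regorafenib and 18.1 and 18.0 CPM in T1. The NormZ of NAE1 in the Regorafenib screen was -6.44. TFR2 turned to 0.38, and CCSAP (-0.67), SURF1 (-0.67), CORO1C (-0.72), EXOSC6 (-1.11), NELFB (-1.40) and CRIP2 (-1.67) missed the threshold.

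**Figure D3:**
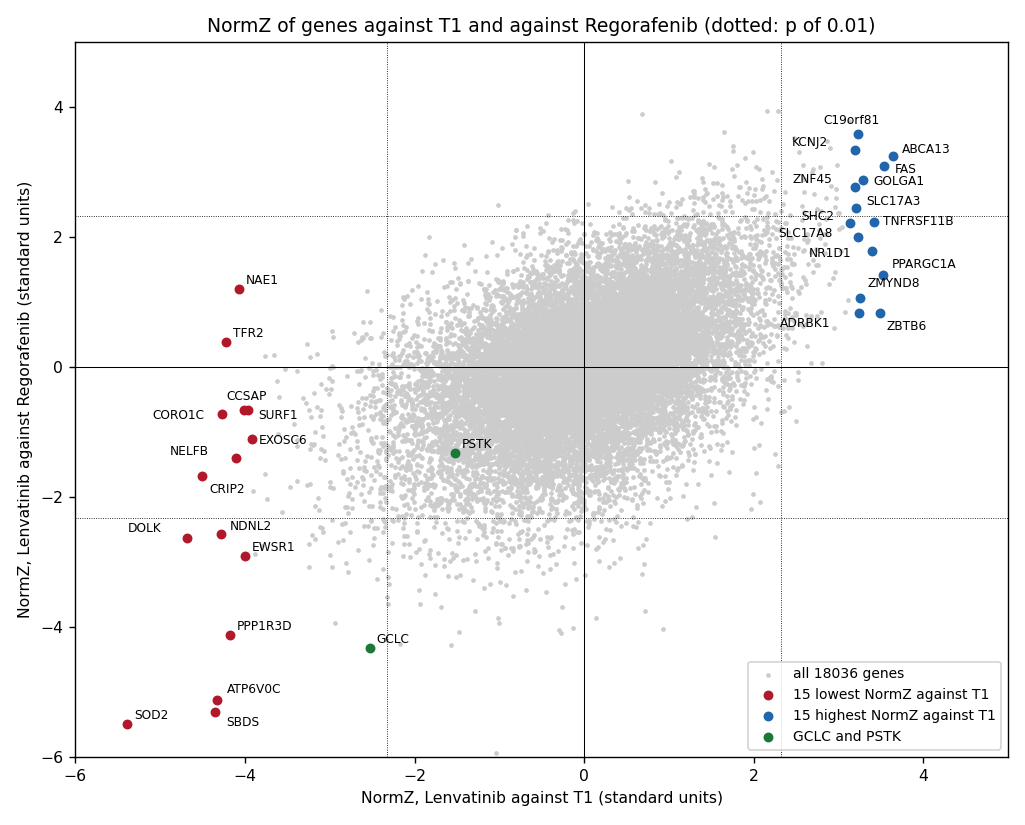
NormZ of each gene for Lenvatinib against T1 (x axis) and against Regorafenib (y axis), in standard units; grey points are all 18036 genes, red and blue points the 15 lowest and 15 highest against T1, green points GCLC and PSTK, and dotted lines the threshold at p of 0.01. SOD2, SBDS, ATP6V0C and PPP1R3D lie below -4 on both axes, whereas NAE1 (1.19) and TFR2 (0.38) lie above 0 on the y axis.

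In all, 29 resisters and 27 sensitizers passed against T1, Regorafenib and T0 alike, a list made after the values were seen and given without a test. It held a further subunit of the proton pump of lysosomes, ATP6V1H (-3.24 against T1), for which guide 1 had 164.8 and 165.4 CPM in Lenvatinib, 271.6 and 255.4 CPM in Regorafenib and 283.6 and 282.3 CPM in T1. It also held AP2M1, the medium subunit of the clathrin adaptor AP-2, whose guide 1 had 22.03 and 21.55 CPM in Lenvatinib, 45.1 and 46.05 CPM in Regorafenib and 50.9 and 47.4 CPM in T1. HS6ST1, which adds sulfate to the heparan chains that act as coreceptors of fibroblast growth factors, had a NormZ of -3.24 against T1, -3.08 against Regorafenib and -4.11 against T0. Guide 2 of HS6ST1 had 2.09 and 3.15 CPM in Lenvatinib, 7.96 and 8.89 CPM in Regorafenib and 16.9 and 15.05 CPM in T1. TBC1D20, a GTPase-activating protein that switches Rab1 off, had -2.94 against T1 and -3.95 against Regorafenib. A guide of TBC1D20 with 6.51 and 5.33 CPM in Lenvatinib and 5.55 and 5.11 CPM in T1 did not share this (adjusted p = 0.54).

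The list also contained genes that most cells need: SF3B3 of the spliceosome, PES1 of ribosome assembly, RTCB, the ligase of transfer RNA splicing, and PSMB2 of the proteasome. PSMB2 stood at -2.44 against T1 and -3.26 against Regorafenib, with -4.72 for T1 against T0. PES1 stood at -2.97 against T1, with -3.21 for T1 against T0. RTCB at -3.18 had 0.53 for T1 against T0, although its guide 1 had 58.99 and 64.01 CPM at T0 and 53.95 and 60.82 CPM in T1. NormZ of T1 against T0 was thus past the threshold for PSMB2 and PES1 but not for RTCB.

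Sensitizers were smaller in score. ABCA13, a large transporter of the ABC family, had the highest NormZ, at 3.64. Guide 1 had 127.4 and 130.0 CPM in Lenvatinib, against 41.0 and 43.9 CPM in T1, a difference of 1.62 ± 0.075 on the log2 scale (SE, edgeR, adjusted p = 7.5e-100). Guide 2 had 53.3 and 54.7 CPM in Lenvatinib, against 46.3 and 45.7 CPM in T1, and guide 3 had 29.1 and 30.03 CPM in Lenvatinib, against 19.4 and 22.8 CPM in T1. All 4 guides were higher, but guides 2 and 3 by only 0.25 and 0.52. ABCA13 stood at 3.24 against Regorafenib and 3.57 against T0.

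FAS, the death receptor of the TNF receptor family, is targeted by 2 guides and had a NormZ of 3.54. Guide 1 had 32.6 and 30.8 CPM in Lenvatinib, 25.5 and 26.4 CPM in Regorafenib, 12.6 and 12.3 CPM in T1 and 17.9 and 18.1 CPM at T0. Guide 2 had 3.59 and 3.87 CPM in Lenvatinib and 0 in both libraries of Regorafenib and of T1. Guide 1 was thus higher under both inhibitors than in T1, and guide 2 under Lenvatinib alone. PPARGC1A, a coactivator of mitochondrial biogenesis, had a NormZ of 3.53 with all 4 guides higher in edgeR, and guide 1 had 13.6 and 13.1 CPM in Lenvatinib, 12.2 and 11.8 CPM in Regorafenib and 7.91 and 7.27 CPM in T1. Against Regorafenib it stood at 1.41, under the threshold.

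SLC17A3, a transporter of organic anions, had 3.20 against T1 and 2.44 against Regorafenib. Its guides did not move alike: guide 3 had 36.1 and 37.8 CPM in Lenvatinib, against 11.7 and 10.1 CPM in T1, whereas guide 2 had 40.9 and 36.8 CPM in Lenvatinib and 35.7 and 39.1 CPM in T1 (adjusted p = 0.43). SHC2, an adaptor of receptor kinases, had 83.1 and 88.8 CPM of guide 1 in Lenvatinib, against 14.01 and 15.05 CPM in T1. Its guide 2 was lower, with 1.25 and 1.45 CPM in Lenvatinib, against 2.91 and 4.07 CPM in T1. ADRBK1, a kinase of G protein-coupled receptors, had 4 higher guides in edgeR and a NormZ of 3.25. Its guide 3 had 35.4 and 31.8 CPM in Lenvatinib, 22.9 and 23.5 CPM in Regorafenib and 11.5 and 12.1 CPM in T1. Guide 1 of SLC17A8, a vesicular glutamate transporter (3.23), had 451.2 and 455.4 CPM in Lenvatinib, 379.0 and 377.6 CPM in Regorafenib and 298.3 and 305.8 CPM in T1. Regorafenib lay between Lenvatinib and T1 in both. ZBTB6, a zinc finger protein (3.49), had 21.2 and 20.99 CPM of guide 3 in Lenvatinib, 22.2 and 21.9 CPM in Regorafenib and 7.005 and 6.92 CPM in T1, so its guide was as high under Regorafenib. TNFRSF11B, the decoy receptor osteoprotegerin (3.42), had 15.02 and 14.04 CPM of guide 1 in Lenvatinib, 8.47 and 9.90 CPM in Regorafenib, 3.46 and 3.81 CPM in T1 and 7.51 and 6.11 CPM at T0.

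The other genes of the highest 15 were NR1D1, a nuclear receptor of the circadian clock (3.39), GOLGA1, a golgin (3.29), ZMYND8, a chromatin reader (3.25), C19orf81 (3.23), ZNF45 (3.19) and KCNJ2, an inward rectifier potassium channel (3.19).

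Of the 15 highest genes, 7 passed against Regorafenib and 13 against T0. The 7 were ABCA13, FAS, GOLGA1 (2.88), SLC17A3, C19orf81 (3.59), ZNF45 (2.78) and KCNJ2 (3.34). For GOLGA1, C19orf81 and KCNJ2 the weight lay on guides near 0 in T1. Guide 4 of KCNJ2 had 3.34 and 4.68 CPM in Lenvatinib and 0 in both T1 libraries. Its guide 1 had 11.5 and 12.4 CPM in Lenvatinib and 9.10 and 10.6 CPM in T1 (edgeR, adjusted p = 0.098). No guide of GOLGA1 exceeded 1.04 CPM in T1, and its guide 3 was called lower. Outside the 7, no guide of NR1D1 exceeded 1.001 CPM in T1, and its guide 4 was called lower. In T1, guides 2 to 4 had at most 0.69 CPM for PPARGC1A and 0 for TNFRSF11B. RNF113A, a zinc finger protein of the spliceosome, passed against all 3 references (3.12 against T1), with 228.5 and 220.7 CPM of guide 1 in Lenvatinib, 180.8 and 175.3 CPM in Regorafenib and 126.5 and 135.1 CPM in T1. Guide 2 of RNF113A did not differ from T1 (adjusted p = 0.54).

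**Figure D4:**
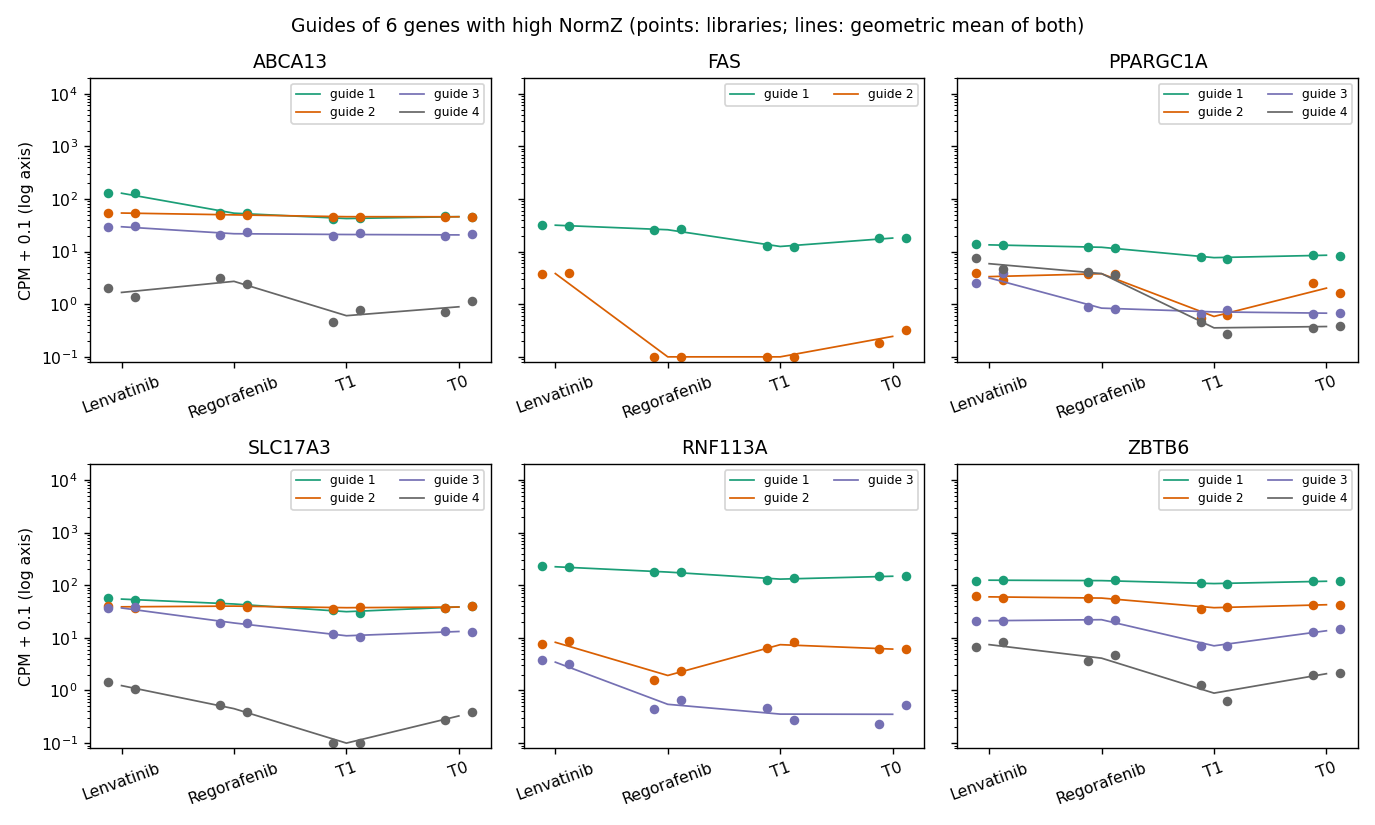
CPM of each guide plus a constant (y axis, log scale) in the 2 libraries of Lenvatinib, Regorafenib, T1 and T0 (x axis) for 6 genes with high NormZ; points are libraries and lines join geometric means. Guide 1 of ABCA13 stands at 127.4 and 130.0 CPM in Lenvatinib, against 41.0 and 43.9 CPM in T1, while the other guides of the gene lie closer together.

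The receptors that Lenvatinib blocks were measured first among the pathways. None of the 10 passed the NormZ threshold in either direction, and their median was 0.29, beside 0.036 over all genes. PDGFRA (-1.16), FLT1 (-0.92), FGFR4 (-0.48) and KDR (-0.32) were below 0, and KIT (0.26), FGFR1 (0.33), FGFR2 (0.51), FLT4 (0.58), FGFR3 (0.79) and RET (1.46) above. In edgeR, 3 of the 10 differed from T1, all higher: FGFR3 by 1.11 ± 0.19, RET by 0.63 ± 0.086 and FLT4 by 0.31 ± 0.11 on the log2 scale (SE), where 61.1% of all genes were called and 5405 of 17996 were higher.

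FGFR1, the broadly expressed receptor of fibroblast growth factors, had 18.0 and 15.1 CPM of guide 1 in Lenvatinib and 18.2 and 19.4 CPM in T1. KDR, the main receptor of VEGFA, had 17.03 and 15.01 CPM of guide 1 in Lenvatinib and 14.5 and 16.3 CPM in T1. FGFR4, the receptor of FGF19 in hepatocytes, had 9.72 and 9.20 CPM of guide 1 in Lenvatinib and 10.8 and 10.9 CPM in T1. In these 3 genes the best covered guide did not pass edgeR (adjusted p = 0.36, 0.65 and 0.4). Guide 1 of RET did, with 39.7 and 36.5 CPM in Lenvatinib, against 21.4 and 21.98 CPM in T1, while guide 2 of RET, its only other guide, had 12.9 and 14.2 CPM in Lenvatinib and 11.9 and 12.5 CPM in T1. FGFR3 rested on a single guide, with 12.9 and 12.6 CPM in Lenvatinib, 13.6 and 12.3 CPM in Regorafenib and 6.37 and 5.36 CPM in T1. PDGFRA and FLT1 each had a best covered guide that did not differ: guide 1 of PDGFRA had 93.4 and 102.3 CPM in Lenvatinib and 98.98 and 87.6 CPM in T1 (adjusted p = 0.3), and guide 1 of FLT1 had 68.7 and 75.7 CPM in Lenvatinib and 66.1 and 68.8 CPM in T1 (adjusted p = 0.15). The values below 0 of these 2 genes went with rare guides at 0 in both Lenvatinib libraries, such as guide 3 of FLT1, which had 2.40 and 2.58 CPM in Regorafenib and 3.55 and 2.77 CPM in T1. KIT and FGFR2 had at most 4.04 CPM over all guides in any Lenvatinib library, so little could be seen of them at this depth.

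Of 18 ligands and coreceptors of these receptors, 0 were resisters and 1 (5.56%) was a sensitizer, beside 1.54% and 0.821% of all genes. The sensitizer was NRP2, a coreceptor of VEGFC, with a NormZ of 2.37. Guide 1 of NRP2 had 177.8 and 182.3 CPM in Lenvatinib, against 155.6 and 163.0 CPM in T1, and guide 2 had 17.4 and 19.6 CPM in Lenvatinib, against 10.2 and 6.92 CPM in T1. FGF19, the ligand of FGFR4, stood at the other end at -1.64, with 7.01 and 10.2 CPM of guide 1 in Lenvatinib and 15.8 and 15.4 CPM in T1. Its coreceptor KLB had 1.34. The median of the list was -0.06.

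Downstream of the receptors, the 20 genes of the RAS-ERK cascade had 0 resisters, 0 sensitizers and a median of -0.46. Of the 20, 13 lay below 0, where 8720 of all 18036 genes did. The lowest were MAP2K1, the kinase that activates ERK (-2.22), and PTPN11, a phosphatase needed for RAS activation (-1.65). In edgeR 12 of the 20 were lower than in T1 and 0 higher, where 5597 of 17996 genes were lower and 5405 higher. MAP2K1 was lower by 0.95 ± 0.13 on the log2 scale (SE), though of its 3 guides 2 were called lower and 1 higher. ARAF (0.59) stood at the other end. Of the 19 inhibitors of the cascade, 12 were lower and 1 higher in edgeR, so lower calls were not particular to the cascade itself. None of these inhibitors passed the NormZ threshold, and their median was -0.19, with LZTR1 at -1.90 and RASA1 at 0.67. The 19 activators of PI3K, AKT and mTOR had no gene past the threshold either and a median of -0.19, from RRAGC (-2.27) to RICTOR (1.36). The median of 15 inhibitors of that pathway was -0.07.

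**Figure D5:**
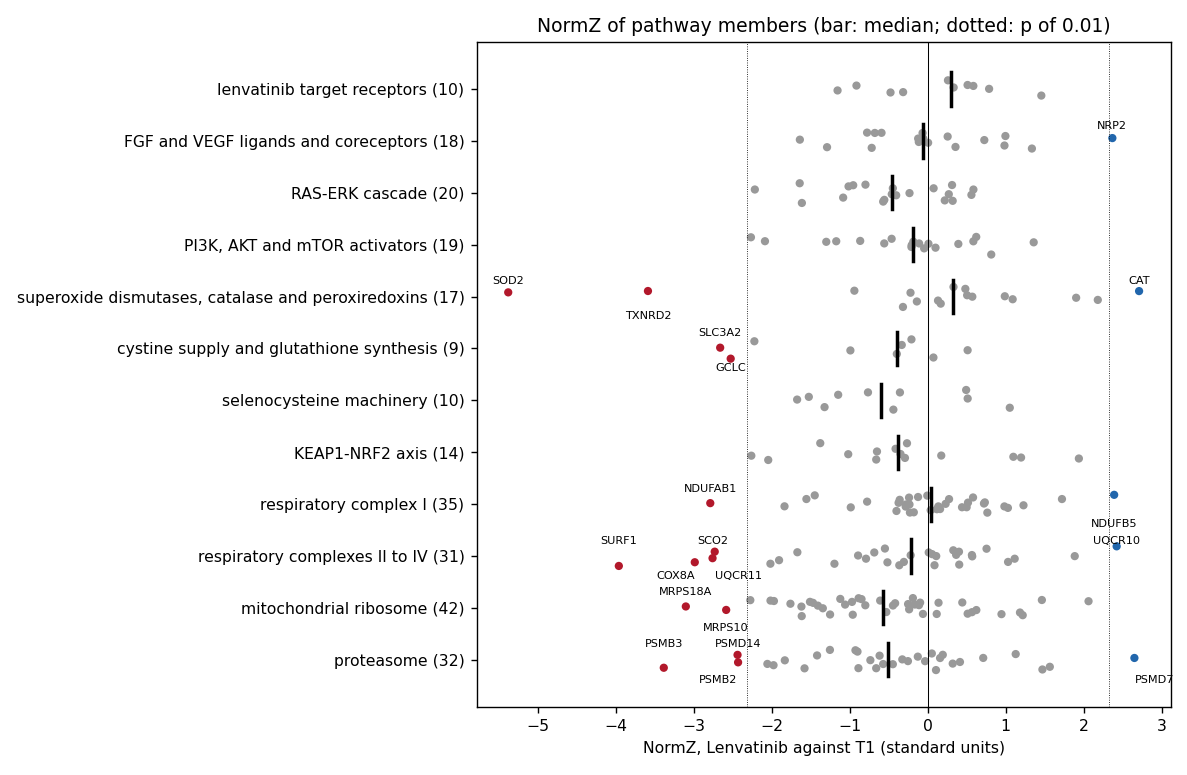
NormZ of the members (x axis, standard units) of 12 gene lists (y axis, number of measured members in brackets) for Lenvatinib against T1; points are genes, black bars medians, dotted lines the threshold at p of 0.01, red points resisters and blue points sensitizers. None of the 10 target receptors passes, and SOD2 at -5.39 is the lowest member of its list, before TXNRD2 at -3.59.

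Redox defence was measured next, since the study followed ferroptosis, a death by iron-dependent lipid peroxidation that glutathione, GPX4 and selenium metabolism hold back. SOD2 was not followed by its family: SOD1, the cytosolic enzyme, had -0.14 and SOD3, the secreted enzyme, 0.13. The list of 17 genes held superoxide dismutases, catalase, peroxiredoxins, thioredoxins with their reductases, and related genes. Of these, 2 were resisters and 1 a sensitizer, and the median was 0.33. These were 11.8% resisters and 5.88% sensitizers, beside 1.54% and 0.821% of all genes, and nothing particular to the list is read from them. The second resister was TXNRD2, the mitochondrial thioredoxin reductase (-3.59), whose guide 4 had 0.083 and 0 CPM in Lenvatinib, against 7.19 and 6.92 CPM in T1, with 1.30 and 1.69 CPM at T0. Its guide 1 had 20.4 and 17.9 CPM in Lenvatinib, 24.0 and 20.4 CPM in Regorafenib and 35.3 and 30.3 CPM in T1. Guide 2 did not differ from T1 (edgeR, adjusted p = 0.62), and guide 3 was lower by 0.40 on the log2 scale. Against Regorafenib TXNRD2 stood at -0.46 and against T0 at -1.24, with 2.64 for T1 against T0. The sensitizer was CAT, catalase (2.71), on few counts: 7.26 and 5.33 CPM over its 4 guides in Lenvatinib, 0.86 and 1.004 CPM in Regorafenib and 0.55 and 0.17 CPM in T1.

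The list of cystine supply and glutathione synthesis held 2 resisters among 9 measured genes (22.2%, beside 1.54% of all genes), and nothing particular to the list is read from so few. Both also passed against Regorafenib. GCLC, the catalytic subunit of glutamate-cysteine ligase, had -2.53 against T1 and -4.33 against Regorafenib. It rested on guide 1, with 187.6 and 195.9 CPM in Lenvatinib, 356.2 and 353.4 CPM in Regorafenib and 434.2 and 430.6 CPM in T1. The other 3 guides of GCLC did not differ from T1 (adjusted p = 0.59, 0.14 and 0.59), and the largest of them had 6.68 and 6.13 CPM in Lenvatinib and 6.28 and 5.19 CPM in T1. SLC3A2, the heavy chain of the cystine importer, had -2.67 against T1 and -2.82 against Regorafenib. Its partner SLC7A11, the light chain, had -0.21, and GCLM, the second subunit of the ligase, 0.07. The median of the list was -0.40.

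PSTK, the kinase that acts on seryl-tRNA in selenocysteine synthesis, did not pass in this screen, with a NormZ of -1.53. Guide 1 had 211.9 and 210.6 CPM in Lenvatinib, 287.3 and 288.9 CPM in Regorafenib and 399.9 and 373.0 CPM in T1. Guide 2 went the other way, with 6.84 and 7.02 CPM in Lenvatinib, 5.30 and 5.67 CPM in Regorafenib and 3.91 and 4.499 CPM in T1, and guide 3 did not differ, with 7.35 and 7.10 CPM in Lenvatinib and 5.64 and 7.27 CPM in T1 (adjusted p = 0.45). Because guide 1 holds most counts, the sum for PSTK was lower by 0.81 ± 0.039 on the log2 scale (SE, edgeR, adjusted p = 1.3e-25). It did not differ from the mean of the other inhibitors (difference 0.04 ± 0.031, adjusted p = 0.22). With the same T1 libraries PSTK had -7.28 with Sorafenib, -3.60 with Abemaciclib, -1.97 with Palbociclib and -1.14 with Regorafenib. Its value in the Erastin screen is not reported here.

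The other 9 genes of the selenocysteine machinery did not pass either, and the median of all 10 was -0.61. SEPSECS, the next enzyme of the pathway, stood at -0.77. GPX4 stood at 0.01 and the median of 8 glutathione peroxidases at 0.23. Among 15 suppressors and 18 drivers of ferroptosis, 0 passed in either direction. NFE2L2, the transcription factor NRF2, came nearest at -2.27. Guide 1 of NFE2L2 had 9.93 and 9.69 CPM in Lenvatinib, 10.6 and 10.2 CPM in Regorafenib, 18.5 and 22.8 CPM in T1 and 11.3 and 12.9 CPM at T0. Lenvatinib was thus near T0 and Regorafenib, and T1 was the group that stood apart, with 3.44 for T1 against T0. SLC39A14, an importer of iron and zinc, had the highest value among the drivers, at 2.22.

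Mitochondrial respiration and translation held some resisters against T1. Of 31 genes of respiratory complexes II to IV, 4 were resisters (SURF1 at -3.97, COX8A at -2.99, SCO2 at -2.76 and UQCR11 at -2.74) and 1 a sensitizer, UQCR10 (2.42), with a median of -0.22. These were 12.9% resisters and 3.23% sensitizers, beside 1.54% and 0.821% of all genes, and nothing particular to the list is read from them. Against Regorafenib none of the 31 was a resister. SURF1 and SCO2 assemble cytochrome c oxidase, COX8A is one of its subunits, and UQCR11 and UQCR10 are subunits of complex III. Of 35 genes of complex I, 1 was a resister, NDUFAB1, and 1 a sensitizer, NDUFB5 (2.86% each). Of 42 genes of the mitochondrial ribosome, 2 (4.76%) were resisters, MRPS18A (-3.11) and MRPS10 (-2.59). Among the 42, 31 lay below 0, where 8720 of all 18036 genes did. Their median was -0.57 against T1 and 0.088 against Regorafenib. Beside the shares of all genes given above, nothing particular to complex I or the mitochondrial ribosome is read from these counts.

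Complexes that every dividing cell needs had medians from -0.51 to -0.08. The calls below stand beside 1.54% resisters and 0.821% sensitizers among all genes, and nothing particular to a list is read from them. The proteasome had 3 resisters (PSMB3 at -3.39, PSMB2 and PSMD14) and 1 sensitizer (PSMD7 at 2.65) among 32 genes, with a median of -0.51. The cytosolic ribosome had a median of -0.49 over 63 genes. The snRNP proteins of the spliceosome had 2, SF3B3 (-3.09) and SF3B4 (-2.59), among 31, with a median of -0.35. Of 18 genes of neddylation and the cullin core, NAE1 and NEDD8 (-2.46) were resisters, and the median was -0.08. In the BCL2 family of apoptosis regulators, 1 of 16 genes was a resister, MCL1 (-2.39), and the median was -0.54. Of the other antiapoptotic members, BCL2L1, which encodes BCL-XL, had -2.12, BCL2 -0.56, BCL2A1 -0.52 and BCL2L2 0.15, none past the threshold. Cholesterol synthesis had 1 resister among 20 genes, SQLE (-3.38), which stood at -1.13 against Regorafenib, and a median of -0.32. Glycolysis had TPI1 (-2.49) among 19 genes, the COMPASS list had WDR82 (-2.45) among 17, and peroxisome biogenesis had a sensitizer, PEX26 (2.58), among 19. No gene passed among the 17 of ATP synthase (median -0.26), the 20 of CDK4/6 and RB (-0.10), the 11 drug efflux transporters (0.09), the 13 of the p53 pathway (0.03), the 28 of Mediator (-0.02), the 19 of Wnt signalling (0.30), the 18 of the Hippo pathway (0.19), the 19 of autophagy (0.22), the 21 of the citrate cycle (-0.24), the 21 of one-carbon and purine synthesis (-0.01), the 13 of coenzyme Q synthesis (-0.27), the 15 transcription kinases (-0.04), the 21 other receptor kinases (-0.24), the 14 of the KEAP1 and NRF2 axis (-0.38) or the 21 KLHL adaptors (0.63). The 339 olfactory receptors had 3 resisters and 6 sensitizers, with a median of 0.17.

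T1 does not enter a contrast of Lenvatinib with the other inhibitors of the line. There, 11949 of 17996 genes (66.4%) differed in edgeR, 6434 higher and 5515 lower, which again is a background and not a finding about genes. Among the 278 resisters 261 were called lower than the other inhibitors, and among the 148 sensitizers 147 were called higher; the Lenvatinib libraries enter both measures. SOD2 was lower than the mean of the other inhibitors by 0.78 ± 0.068 (SE), DOLK by 0.86 ± 0.048, PPP1R3D by 0.87 ± 0.064, SBDS by 0.62 ± 0.045 and ATP6V0C by 0.56 ± 0.027 on the log2 scale. ABCA13 was higher by 0.84 ± 0.036 and FAS by 1.26 ± 0.089. TFR2 did not differ (difference -0.04 ± 0.034, adjusted p = 0.33). These are differences from a mean of inhibitors, not from each one. SOD2, as given above, was a resister with Sorafenib, Abemaciclib and Palbociclib too, so its fall from T1 was not particular to Lenvatinib.

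The genes with the widest fitted difference from the other inhibitors were all sparsely counted, so their folds are not given. FGF11, an intracellular member of the fibroblast growth factor family, was at 0 in both Lenvatinib libraries, against 0.60 and 0.43 CPM in Regorafenib, 6.005 and 6.23 CPM in T1 and 2.17 and 2.21 CPM at T0. SQLE, squalene epoxidase of cholesterol synthesis, had 0.083 and 0 CPM in Lenvatinib, 1.03 and 1.29 CPM in Regorafenib and 6.91 and 7.27 CPM in T1. MAN2A2, a Golgi mannosidase, and ABT1, a factor of ribosome assembly, were also at 0 in both Lenvatinib libraries, with at most 5.88 CPM in a T1 library. On the other side stood MECR, an enzyme of mitochondrial fatty acid synthesis, with 4.59 and 5.81 CPM in Lenvatinib, 0.34 and 0.29 CPM in Regorafenib and 1.001 and 0.35 CPM in T1. C1QTNF6 had 7.34 and 6.78 CPM in Lenvatinib and 0 and 0.69 CPM in T1, BEST2, an anion channel, had 7.01 and 7.91 CPM in Lenvatinib and 0.55 and 0.87 CPM in T1, and S100G, a calcium-binding protein, had 3.92 and 5.49 CPM in Lenvatinib and 0 in both T1 libraries. ZNF573 rests on 1 guide, with 3.09 and 3.87 CPM in Lenvatinib and 0.091 and 0 CPM in T1.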

How the data were processed

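The guide insert was amplified from genomic DNA and sequenced. The deposited table gives raw counts for each guide, obtained by the authors through alignment with Bowtie2. The sources used here give neither the version and settings of Bowtie2 nor the build of the positions, so no guide position or sequence is printed. NormZ followed the steps of DrugZ (Python 3.11.15; numpy 2.4.6; scipy 1.17.1; pandas 2.3.3): each library scaled to 10000000, a pseudocount of 5, each Lenvatinib library against the T1 library of equal number, and an SD over windows of 1000 guides. edgeR 4.0.16 in R 4.3.3 (TMM, filterByExpr, quasi-likelihood test, Benjamini-Hochberg adjustment) was fitted to 15 SNU-398 libraries. Erastin library 2, which an earlier processing of these data had judged to go against its label, was left out. The 2 Erastin libraries correlated at r = 0.948, which does not tell which of them departs from its label. Both methods were tested on simulated data. Alternatives were other pseudocounts, scalings, filters, pairings and references, libraries left out, and DESeq2 1.42.0.

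Named genes were the 15 lowest and 15 highest by NormZ with equal sign in both libraries, the target receptors, PSTK and SOD2, the extreme members of 40 gene lists (27 list members had no match), genes whose well covered guides all moved by 1 on the log2 scale, and up to 6 genes per direction with the largest change against the other inhibitors. Members, lists and tests were chosen with earlier results of these data known. A few members of the lists are not reported here.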

Additional observations from a re-analysis of the deposited data

Results flagged for a closer look

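The same drug was screened in Hep3B, another HCC line, with its own T1 libraries. Of the 30 genes at the ends of the SNU-398 screen, 11 had a summed log2 ratio of opposite sign in every Hep3B library; the difference was not tested. Among genes that were low in SNU-398, NormZ in Hep3B was 1.009 for SBDS, 0.6338 for ATP6V0C and 0.5565 for EWSR1. Among genes that were high, it was -1.561 for ABCA13, -0.8213 for NR1D1, -0.64 for ZNF45, -0.5015 for TNFRSF11B, -0.3369 for PPARGC1A, -0.07693 for ZMYND8, -0.04478 for ADRBK1 and 0.05426 for C19orf81. Of the 30 genes, SOD2 (-3.799), NDNL2 (-2.714) and SLC17A3 (2.538) passed in Hep3B in the same direction. None of the Hep3B values of the genes of opposite sign passed the threshold at p of 0.01.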

How the results depend on the processing

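The count of sensitizers depended on coverage: 46 of 15627 genes passed when only guides with a mean T1 count of at least 30 were kept, and 62 of 14902 with a mean T0 count of at least 100, against 148; resisters numbered 274 and 300. Of the 278 resisters and 148 sensitizers, 160 and 21 passed again under the T1 minimum and 142 and 22 under the T0 minimum. Of the 30 genes at the ends of the screen, some had no guide left, and 8 and 10 of the others lost their call. The T1 minimum is set on counts that also enter the score. With a pseudocount of 1, 217 and 106 passed again, and 7 resisters instead of 14 had a false discovery rate under 0.05. References of Regorafenib and T0, and the T0 filter, were chosen after seeing the data. Against Regorafenib, TFR2 at 0.3838 and NAE1 at 1.194 changed sign, and 14 more of the 30 genes at the ends lost their call. The cause was not tested. Without 1 library at a time, resisters ranged from 274 to 291 and sensitizers from 144 to 151; at least 209 of the 278 resisters and at least 112 of the 148 sensitizers passed again each time. The edgeR test on gene sums called 9199 to 9851 genes without 1 library at a time and 7954 with all 16 libraries. Library numbers did not pair the samples: deviations of Lenvatinib and T1 libraries of equal number correlated at -0.0009, and no pair of groups above 0.042. The replicate block gave 11059 genes and 31573 guides in edgeR, and NormZ without it 276 resisters and 144 sensitizers. Over all genes and over all guides, no edgeR count moved by more than 1.5 times under the alternatives run; of 116 control guides, 25 were higher and 15 lower with Regorafenib as the reference, against 33 and 33 with T1. Rare guides limit the screen: 43.3% of guides had a mean T1 count of at least 30.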

Other observations

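Outside the lists described above, the genes that passed against T1, Regorafenib and T0 included more members of membrane traffic: COPA, a coat protein of Golgi vesicles (-2.85 against T1), and TRAPPC1, a subunit of a tethering complex (-2.81). They also included DDB1, the adaptor of the CUL4 ubiquitin ligases (-2.91), and CENPC, a centromere protein (-2.84), both of which also had low values for T1 against T0 (-2.41 and -2.67). On the high side were IL18, a cytokine (2.75), and OR6Y1 (2.91) and OR10H3 (2.34), which are olfactory receptors. These genes were picked after their values were seen and carry no test.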
